A study of Homo sapiens with 6 samples.

Results

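The acyl-CoA synthetases described here are 9 genes, ACSF2, ACSF3, ACSL1, ACSL3, ACSL4, ACSL5, ACSL6, ACSS1 and ACSS2, out of 28278 gene symbols counted in HCT116 cells. HCT116 is an established human cell line that was derived from a colon carcinoma of poor differentiation. ACSF2 was chosen by its fold change in the comparison reported below, and the other members were chosen as enzymes of the same family with those results known. All 9 symbols were found in the count tables. The fold changes of the members are therefore given as a description and not as a test.

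The series holds 6 RNA-seq libraries in 2 groups of 3. Both groups carried an shRNA delivered by lentivirus, a scrambled sequence in the wild-type control cells (shControl) and a sequence against TRIM21 in the knockdown cells (shTRIM21). Both were selected in puromycin at 5 µg/ml, from 36 h after infection on and over 2 to 3 weeks. All libraries are labelled day 21. The labels do not say whether the lines were clones, how many shRNA sequences were used or whether the replicates, which they call biological, came from separate cultures, so a p-value measures only the spread between these libraries, which may be technical.

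Acyl-CoA synthetases join a fatty acid to coenzyme A in a reaction that consumes ATP and passes through an acyl-AMP intermediate. A free fatty acid has to be activated in this way before it can be oxidized, elongated or built into phospholipids and triglycerides. The family is divided by the chain length it prefers, from acetate (ACSS enzymes) through medium chains to long chains (ACSL enzymes), and its members sit in different compartments, among them mitochondria, the endoplasmic reticulum, lipid droplets and the cytosol.

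A stretch that all 9 proteins share is the AMP-binding signature, the loop that handles ATP in this enzyme class. It was found once in each member by translating 1 principal transcript per gene (GENCODE 29, GRCh38) and searching for the PROSITE pattern of that name. The 36 coding bases are shown to let the members be compared, on the coding strand and 5′ to 3′, with capitals for the 7 of 12 codons whose encoded residue is identical in all 9 members.
ACSF2: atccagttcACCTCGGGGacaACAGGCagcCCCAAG
ACSF3: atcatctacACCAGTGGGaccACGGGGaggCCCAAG
ACSL1: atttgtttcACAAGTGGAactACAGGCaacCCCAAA
ACSL3: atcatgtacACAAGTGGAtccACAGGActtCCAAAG
ACSL4: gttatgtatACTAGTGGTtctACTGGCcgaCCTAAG
ACSL5: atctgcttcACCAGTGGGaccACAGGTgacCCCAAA
ACSL6: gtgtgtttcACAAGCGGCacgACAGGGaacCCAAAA
ACSS1: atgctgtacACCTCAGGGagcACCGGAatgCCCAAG
ACSS2: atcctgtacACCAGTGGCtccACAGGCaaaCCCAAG

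The capital codons encode threonine, serine and glycine, then threonine and glycine, then proline and lysine. Of 11873 tested genes with a coding sequence in GENCODE 29, 18 (0.152%) held the signature. The stretch lies within a single exon in ACSF3 (chr16:89101276-89101311), ACSL3 (chr2:222921324-222921359), ACSL4 (chrX:109678336-109678371), ACSS1 (chr20:25022994-25023029) and ACSS2 (chr20:34919537-34919572). An intron divides it in ACSF2 (chr17:50462571-50463176), ACSL1 (chr4:184773144-184773687), ACSL5 (chr10:112410611-112411466) and ACSL6 (chr5:131976711-131985431). ACSL1, ACSL4, ACSL6 and ACSS1 are on the minus strand and the others on the plus strand.

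Over the whole proteins, this loop included, the members fall into close and distant relatives. The ACSL1 and ACSL6 proteins were identical at 66.6% of aligned residues, ACSL3 and ACSL4 at 65.7%, ACSL5 and ACSL6 at 62.6% and ACSL1 and ACSL5 at 61.1%. ACSS1 and ACSS2 shared 48.6%. ACSF2, of 615 residues, shared 30.4% with ACSF3 and between 20.8% and 28.7% with the ACSL and ACSS proteins, so that it had no close relative among the members.

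The libraries held 22656160 to 27123657 counts each, and 1 count was worth 0.0356 to 0.0449 CPM (counts per 1000000, scaled by TMM). Replicate 3 of shControl stood furthest from its group. Its counts differed from those of shControl replicates 1 and 2 by 77.1 and 57.3 times sampling noise (chi-square per degree of freedom), against 5.86 between those replicates and 10.9 to 37.2 within shTRIM21. Genes of ribosomal RNA took 6.69% of the counts of shControl replicate 3 against 9.55% to 15.2% in the other 5 libraries. They were not left out of the chi-square, so the 2 observations are not separate. The distance between replicates without these genes was not tested. Of 14 markers of colon epithelium 7 averaged at least 5 CPM, CDX1 and LGALS4 were listed at 0, and the summed level of the list was 488 to 495 CPM in shControl and 481 to 516 CPM in shTRIM21. DSG2 alone averaged 254 and 282 CPM of these sums. Of the 10 tested markers 0 were called in edgeR, DESeq2 or limma-voom, and 3 had an unadjusted p under 0.05 in edgeR. These went in both directions, DSG2 higher in shTRIM21 (log2 fold change 0.15, SE 0.07) and KRT18 (-0.16, SE 0.07) and KRT8 (-0.20, SE 0.09) lower. In 5 of the 10 tested markers (CDH1, KRT8, KRT18, KRT19 and VIL1) every shTRIM21 library was below every shControl library, as in 13.9% of all tested genes. KRT18 averaged 78.7 CPM in shControl against 70.4 CPM in shTRIM21, and KRT8 43.2 against 37.7 CPM. EPCAM and ESRP2 had positive log2 fold changes (0.13, SE 0.12, and 0.02, SE 0.08). Marker lists of fibroblasts, endothelium, leukocytes, adipocytes and hepatocytes summed to at most 1.85 CPM in any library. CANX, RPL7A and NDUFS1, which most cell lines transcribe at high levels, were listed at 0 in every library. A marker listed at 0 is therefore not read as absent. TRIM21 itself, the gene the shRNA is directed against, averaged 13.1 ± 2.33 CPM in shControl and 7.90 ± 1.10 CPM in shTRIM21 (SD, n = 3), a log2 fold change of -0.73 (SE 0.17, edgeR quasi-likelihood test with Benjamini-Hochberg adjustment, adjusted p = 0.0124). Without shTRIM21 replicate 3 that call was lost (-0.62, adjusted p = 0.0734), and likewise without replicate 3 of both groups (-0.45, adjusted p = 0.114).

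The question of the comparison is how expression in TRIM21 knockdown cells differs from that in control cells. ACSF2 was lower in the shTRIM21 cells, at about 0.522 of the control level, and ACSL5 was higher, at about 1.44 of it. The abundant long-chain enzymes ACSL1, ACSL3 and ACSL4 were at 1.01, 0.925 and 0.949 of theirs. Of the 8 members that passed the filter on low counts, 1 was called higher (ACSL5) and 1 lower (ACSF2) at an adjusted p under 0.05, where 9.08% of all 14002 tested genes were called, 4.43% higher and 4.66% lower. ACSL6 did not pass the filter. As the members were chosen with this comparison known, nothing is read from that count.

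**Figure D1:**
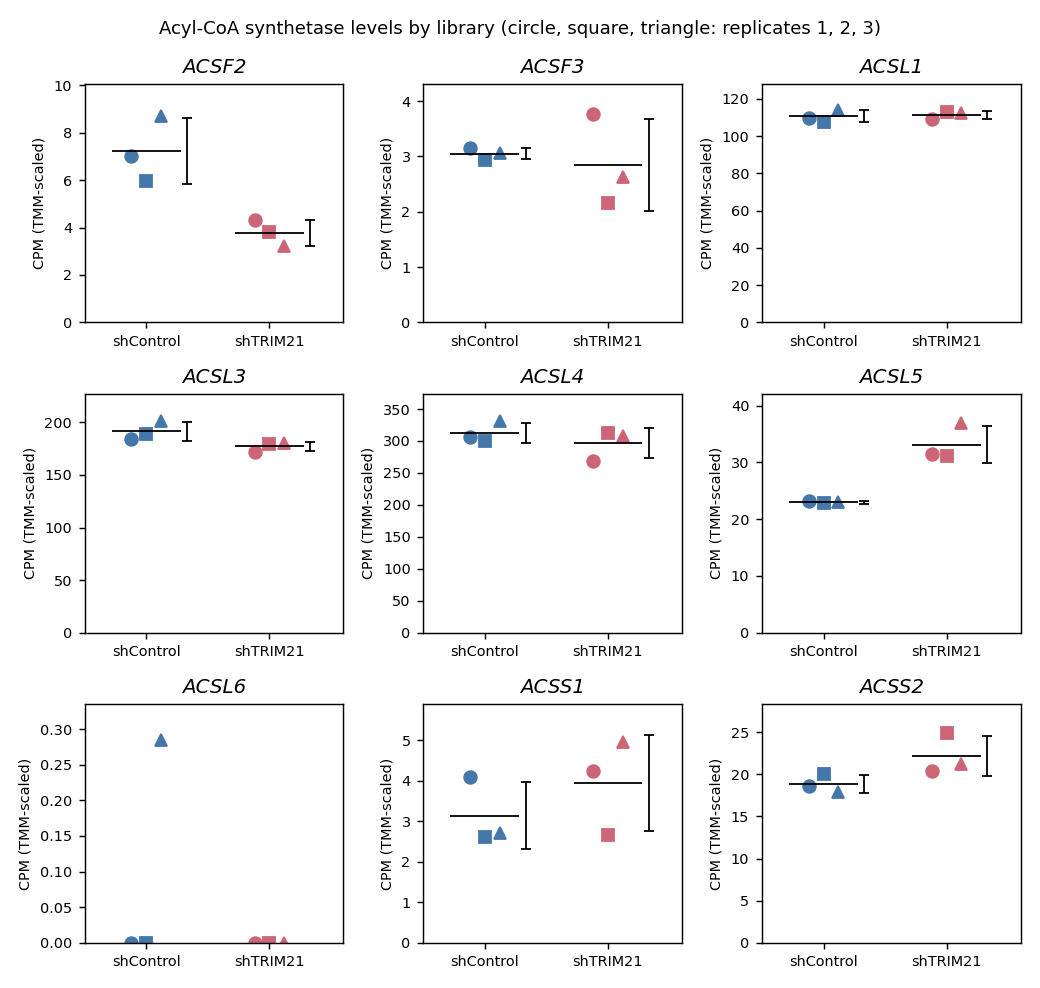
Level of each member in each library in TMM-scaled CPM on a linear axis from 0, with shControl in blue, shTRIM21 in red, the horizontal line at the group mean and the bar at 1 SD (n = 3; no mean is drawn for ACSL6). The groups do not overlap in ACSF2, ACSL3, ACSL5 and ACSS2, and in ACSF2 and ACSL5 the distance between the means is the largest relative to the mean among the tested members.

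ACSF2 is a mitochondrial synthetase of medium-chain fatty acids. The gene (ENSG00000167107) lies on the plus strand at chr17:50426158-50474845. It was counted 172, 146 and 245 times in shControl replicates 1 to 3 and 110, 85 and 83 times in shTRIM21 replicates 1 to 3. In CPM these were 7.04, 5.97 and 8.72 against 4.32, 3.82 and 3.21. The groups did not overlap, and shControl replicate 3 was the highest of the 6 libraries. Since these are bulk libraries, fewer cells with the transcript and less transcript per cell cannot be told apart.

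The group means of ACSF2 were 7.24 ± 1.39 and 3.78 ± 0.556 CPM (SD, n = 3 per group), a log2 fold change of -0.94 (SE 0.22). Counting error alone was 11% at 83 counts and 6.39% at 245, against a spread between libraries of 19.2% in shControl and 14.7% in shTRIM21. A lower log2 fold change was found in 1.33% of tested genes, a place that follows from the choice of ACSF2 by this value. The call was lost without shTRIM21 replicate 3, where the log2 fold change was -0.83, and without replicate 3 of both groups, where it was -0.66. Without shControl replicate 3 the value was -0.77 and the call was kept.

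Exons of ACSF2 overlap those of CHAD, a cartilage matrix protein gene on the opposite strand, over 270 bases or 4.66% of the exon length. CHAD was counted 7, 5 and 8 times in shControl and 8, 4 and 4 times in shTRIM21. Without the strand setting of the counting, which is not given in the sources used here, reads of either gene over the shared bases cannot be told apart.

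ACSF3, the relative of ACSF2 that activates malonate in mitochondria, had fewer counts still and was not called. It was counted 77, 72 and 86 times in shControl and 96, 48 and 68 times in shTRIM21, or 3.15, 2.94 and 3.06 CPM against 3.77, 2.16 and 2.63 CPM. The shControl libraries were close together and the shTRIM21 libraries lay on both sides of them. The log2 fold change was -0.09 (SE 0.29), with a positive value of 0.07 without shTRIM21 replicate 2. At 48 to 96 counts the counting error was 14.4% to 10.2%, so that changes of that order could not be seen in a single library.

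Within each library, the count of ACSF2 was 2.23, 2.03 and 2.85 times that of ACSF3 in shControl and 1.15, 1.77 and 1.22 times in shTRIM21. This within-library ratio, which does not depend on how libraries are scaled, was lower in every shTRIM21 library than in any shControl library. As ACSF2 was chosen by its fold change and ACSF3 changed little, the ratio restates the ACSF2 difference and is no separate support for it. On the log2 scale it went from 1.23 ± 0.25 to 0.44 ± 0.34 (SD, n = 3 per group), a difference of -0.79.

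ACSL5, a long-chain synthetase of mitochondria and endoplasmic reticulum that is prominent in intestinal epithelium, went the other way. The gene (ENSG00000197142) lies on the plus strand at chr10:112374018-112428380. It was counted 568, 557 and 645 times in shControl and 804, 691 and 954 times in shTRIM21. In CPM these were 23.2, 22.8 and 23.0 against 31.5, 31.0 and 36.9. The shControl libraries had a coefficient of variation of 1.04%, and all shTRIM21 libraries were above them, with replicate 3 the highest.

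The means of ACSL5 were 23.0 ± 0.239 and 33.1 ± 3.22 CPM (SD, n = 3 per group), a log2 fold change of 0.53 (SE 0.11). With a single library left out the value ran from 0.45 to 0.57, and the call was kept in all 16 alternative fits. Exons of AL157786.1, an antisense gene on the opposite strand, cover 224 bases or 5.29% of those of ACSL5, and this gene was not among those counted. Exons of ZDHHC6, a palmitoyltransferase gene on the opposite strand, cover 144 bases or 3.40% of those of ACSL5. ZDHHC6 was counted 1548, 1745 and 2318 times in shControl and 1853, 1548 and 1741 times in shTRIM21, with a log2 fold change of -0.05 (SE 0.09) that was not called (edgeR adjusted p = 0.778). Here too reads over the shared bases cannot be told apart, and their part in the ACSL5 counts was not tested.

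**Figure D2:**
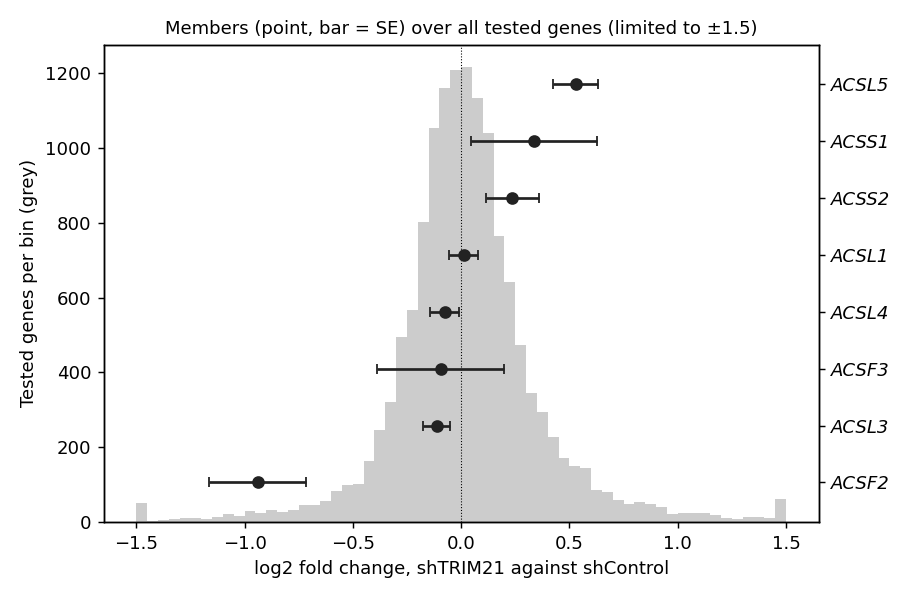
Log2 fold change of the 8 tested members (points, right axis; bars are 1 SE) over the distribution of all 14002 tested genes (grey bars, left axis; values beyond 1.5 in either direction are drawn at 1.5). ACSF2 at -0.94 lies above 1.33% of all tested genes and ACSL5 at 0.53 above 93.9%, while ACSL1, ACSL3, ACSL4 and ACSF3 lie between -0.11 and 0.01.

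ACSL4, which prefers arachidonate and other polyunsaturated fatty acids and thereby supplies the phospholipids that are oxidized in ferroptosis, was the most abundant member. It was counted 7471, 7359 and 9285 times in shControl and 6861, 6940 and 7976 times in shTRIM21, or 306, 301 and 331 CPM against 269, 312 and 308 CPM. The groups overlapped, and shTRIM21 replicate 1 was the lowest library. The log2 fold change was -0.08 (SE 0.07), and it ran from -0.11 to -0.01 over the alternatives.

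ACSL3, a synthetase of the endoplasmic reticulum and of nascent lipid droplets and the closest relative of ACSL4, gave 185, 189 and 201 CPM in shControl and 172, 179 and 180 CPM in shTRIM21. All shTRIM21 libraries were lower, but by a small margin, with a log2 fold change of -0.11 (SE 0.06) that was not called. The ACSL3 count was 0.604, 0.628 and 0.609 of the ACSL4 count in shControl and 0.639, 0.575 and 0.585 of it in shTRIM21. These ratios overlapped between the groups, with a difference of -0.03 on the log2 scale against SDs of 0.03 and 0.08.

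ACSL1, a long-chain synthetase that feeds both oxidation and triglyceride synthesis, had the smallest spread of the tested members over all 6 libraries, a coefficient of variation of 2.22%. Its levels were 110, 108 and 114 CPM in shControl and 109, 113 and 112 CPM in shTRIM21. The log2 fold change was 0.01 (SE 0.07) and -0.01 without shControl replicate 2. Within the groups the coefficient of variation was 2.90% in shControl, above the 1.04% of ACSL5, and 1.86% in shTRIM21.

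ACSL6, a synthetase best known from the nervous system, had 8 counts in shControl replicate 3 and was listed at 0 in the other 5 libraries. CANX, RPL7A and NDUFS1, which most cell lines transcribe at high levels, had 0 counts in every library too, and so ACSL6 is not called absent. No fold change is given for ACSL6.

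The acetate enzymes were both at modest levels. ACSS2 makes acetyl-CoA from acetate in the cytosol and nucleus. Its levels were 18.6, 20.02 and 17.9 CPM in shControl and 20.4, 24.9 and 21.2 CPM in shTRIM21. Every shTRIM21 library was above every shControl library, by a small margin at the closest pair, and the log2 fold change of 0.24 (SE 0.12) was not called.

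ACSS1, the mitochondrial acetate enzyme, gave 4.09, 2.61 and 2.71 CPM in shControl and 4.24, 2.65 and 4.94 CPM in shTRIM21. Its spread between libraries, 26.4% in shControl and 29.8% in shTRIM21, was larger than the counting error of 8.84% to 13.0%. The groups overlapped, with a log2 fold change of 0.34 (SE 0.29) that ran from 0.06 to 0.57 over the alternatives. The ratio of ACSS1 to ACSS2 was 0.220, 0.131 and 0.151 in shControl and 0.207, 0.106 and 0.233 in shTRIM21, and its sign of change depended on which library was left out.

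Counting libraries rather than calls, the groups did not overlap in 4 of the 8 tested members, 2 higher (ACSL5 and ACSS2) and 2 lower (ACSF2 and ACSL3). Among all tested genes 28.1% did not overlap, 14.1% higher and 13.9% lower. The median log2 fold change of the tested members was -0.03, with 4 positive and 4 negative, beside 0.01 over all tested genes.

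To compare levels between members, CPM were divided by the length of all annotated exons of each gene in kb. ACSL4 was at 48.7 ± 2.50 CPM per kb in shControl and 46.2 ± 3.68 in shTRIM21 (SD, n = 3 per group), followed by ACSL3 at 26.5 ± 1.21 and 24.5 ± 0.629 and ACSL1 at 17.6 ± 0.510 and 17.7 ± 0.331. Next was ACSL5, at 5.43 ± 0.0564 and 7.83 ± 0.760, and then ACSS2, at 3.50 ± 0.203 and 4.12 ± 0.445. No library of any of these members overlapped with that of its neighbour in the order.

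ACSF2 followed at 1.25 ± 0.240 CPM per kb in shControl and 0.652 ± 0.0959 in shTRIM21 (SD, n = 3 per group). ACSS1 was at 0.361 ± 0.0951 and 0.454 ± 0.135, and ACSF3 at 0.209 ± 0.00714 and 0.195 ± 0.0566. In shControl the lowest ACSF2 library (1.03) was above the highest ACSS1 library (0.471), whereas in shTRIM21 the lowest ACSF2 library (0.553) was just below the highest ACSS1 library (0.569). With the length of 1 principal transcript per gene in place of all exons, the order of the 9 members was the same, and ACSF2 was at 3.24 and 1.69 CPM per kb. The overlap with ACSS1 in shTRIM21 was then absent. The lowest shTRIM21 library of ACSF2 was at 1.435 and the highest of ACSS1 at 1.344 CPM per kb, so that overlap depends on the length used.

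**Figure D3:**
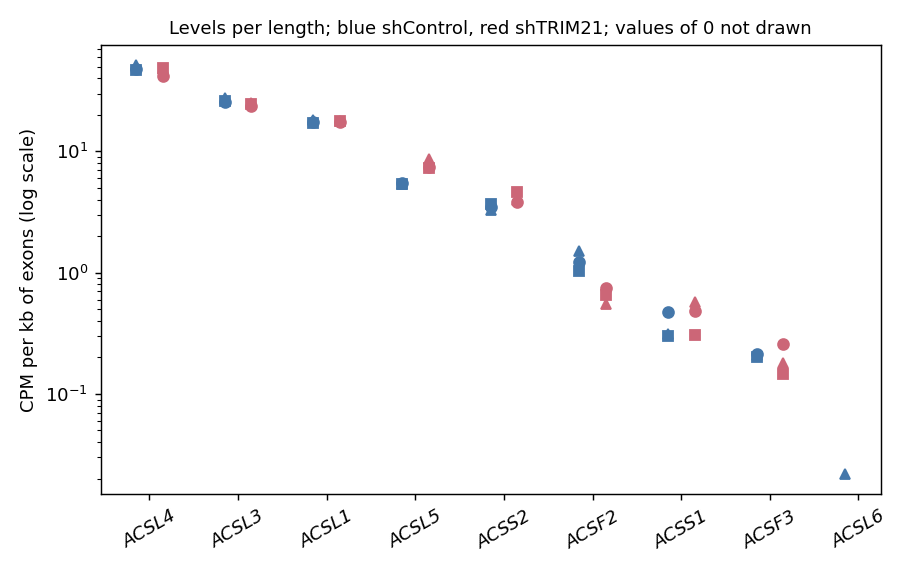
CPM per kb of annotated exons on a log axis for each member, ordered by the mean over 6 libraries, with 1 symbol per library (shControl blue, shTRIM21 red; values of 0 are not drawn). ACSL4 is highest, ACSF2 moves from 1.25 in shControl toward ACSS1 in shTRIM21 at 0.652, and ACSL6 shows a single library.

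The 3′ UTRs of the members were searched for AGTGGAA and GTGTCAC, a pair of 7-base words taken up because an earlier analysis of these same data had named them. Whether either word goes with fold changes was not tested here. Only the sense strand was read, in the longest annotated 3′ UTR of each gene, and both words are written as DNA. The matches are shown to let the sites be located, and capitals mark the word.
ACSF3: gaccgtccctgGTGTCACctctgcctggt
ACSF3: tccatcagcatGTGTCACagaaagtgcgt
ACSS1: aggtcccaggaGTGTCACccatggagagg
ACSL6: ccctatgtatcAGTGGAAaaatccttctt

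The ACSF3 sites lie at chr16:89154405-89154433 and chr16:89154822-89154850, the ACSS1 site at chr20:25007556-25007584 and the ACSL6 site at chr5:131951344-131951372 (GRCh38, transcript strand). The 3′ UTRs of ACSF2 (285 bases), ACSL1, ACSL3, ACSL4, ACSL5 (1022 bases) and ACSS2 held neither word. Among 11839 tested genes with an annotated 3′ UTR, of median length 1380 bases, 16.2% held AGTGGAA and 9.87% held GTGTCAC. The ACSF2 UTR is shorter than that median, and the lack of a match says only that these letters are not in the annotated sequence.

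Among 10647 genes outside the family with a mean of at least 5 CPM, TRIM21 had the pattern over the 6 libraries most like that of ACSF2. Likeness was the root mean square difference of centred log2 CPM, 0.12 for TRIM21 and 0.13 for ADAMTS6, a metalloprotease of the extracellular matrix, which came next. TRIM21 was at 11.8, 11.7 and 15.8 CPM in shControl and 8.83, 8.18 and 6.68 CPM in shTRIM21, and ADAMTS6 at 13.6, 13.9 and 16.1 against 10.3, 7.73 and 6.37 CPM. In both, as in ACSF2, the highest library was shControl replicate 3, which stood furthest from its group. The likeness covers the difference between groups as well as that within them and has no test. ACSF2 was chosen by its difference between groups, and TRIM21 is the gene the shRNA is directed against. A likeness that includes this difference is therefore partly set by the choice, and shared regulation was not tested.

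**Figure D4:**
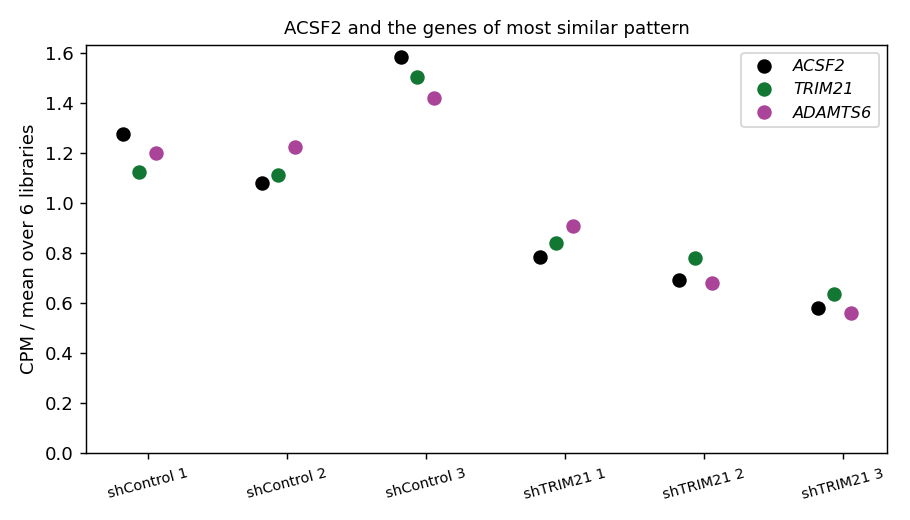
CPM of ACSF2, TRIM21 and ADAMTS6 in each library, divided by the gene's mean over the 6 libraries (linear axis from 0, 1 point per gene and library). All 3 genes are highest in shControl replicate 3, and all shTRIM21 libraries lie below all shControl libraries.

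Other genes of fatty acid handling, their regulators and genes of ferroptosis were described by 10 lists. These used edgeR's quasi-likelihood test over all genes and Benjamini-Hochberg adjustment. Together the lists held 184 genes, of which 147 were tested, 12 rose and 7 fell in shTRIM21 (12.9% called, beside 9.08% of all tested genes). The ferroptosis list, which holds genes of iron, heme and glutathione, gave 6 of the 12 that rose and 0 of the 7 that fell. Of 18 other acyl-CoA synthetases, the ACSM, ACSBG and SLC27A (fatty acid transport protein) enzymes among them, 7 were listed at 0 throughout, which is not read as absence. Of the same 18 genes 10 were tested, and of these 0 rose and 0 fell. DESeq2 and limma-voom called 0 as well, and 1 had an unadjusted p under 0.05 in edgeR (SLC27A1, log2 fold change 0.88, SE 0.33). Their median log2 fold change was 0.23, with 6 positive and 4 negative. Some of the positive values came from genes of few counts, SLC27A1 among them (2.62 CPM on average over the 6 libraries). ACSBG1, an enzyme of very long chains best known from brain, was at 101 CPM in shControl and 91.4 CPM in shTRIM21, and was not called (edgeR adjusted p = 0.263).

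Of 23 tested genes of mitochondrial beta-oxidation, which uses the activated acyl chain, 1 rose and 2 fell (13% called, not far from the 9.08% of all tested genes), with a median of 0.05. ACADSB, a dehydrogenase of short branched-chain acyl-CoA, fell to 50.5 ± 0.412 CPM from 94.7 ± 5.39 CPM (SD, n = 3 in each), a log2 fold change of -0.91 (SE 0.07, edgeR adjusted p = 3.54e-07), which is close in size to that of ACSF2. ACADVL, which starts the oxidation of long chains, fell by 0.34 (SE 0.07), and DECR1, which prepares unsaturated chains, rose by 0.40 (SE 0.08). Of 16 tested peroxisomal genes 2 rose and 0 fell (12.5% called, likewise beside 9.08%), PHYH of phytanic acid oxidation by 0.49 (SE 0.11) and the transporter ABCD3 by 0.27 (SE 0.07), with a median of 0.14. PHYH lost its call without shTRIM21 replicate 2 (edgeR adjusted p = 0.0508), and ABCD3 lost it without shControl replicate 1 (0.104) or 2 (0.113), or shTRIM21 replicate 2 (0.122) or 3 (0.0949), and with total counts in place of TMM (0.0774).

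Of 14 tested genes of elongation and desaturation 0 rose and 2 fell (14.3% called, beside 9.08% of all tested genes), with a median of -0.03. SCD, the stearoyl-CoA desaturase that acts on the acyl-CoA product of the ACSL enzymes, fell to 564 ± 19.5 CPM from 725 ± 18.5 CPM (SD, n = 3 in each; log2 fold change -0.36, SE 0.06). Its relative SCD5 fell by 0.38 (SE 0.09), a call lost without shTRIM21 replicate 1 (edgeR adjusted p = 0.0549). Of 12 tested genes of acetyl-CoA supply and fatty acid synthesis 1 rose and 1 fell (16.7% called). SLC25A1, the mitochondrial citrate carrier, rose by 0.67 (SE 0.10). CBR4 of mitochondrial fatty acid synthesis fell by 0.44 (SE 0.11), a call lost without shTRIM21 replicate 1 (edgeR adjusted p = 0.0706) or 3 (0.0508), and the median of that list was 0.06.

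Acyl-CoA thioesterases split acyl-CoA into free fatty acid and coenzyme A. Of 7 tested thioesterases 0 rose and 1 fell (14.3% called, beside 9.08% of all tested genes), with a median of 0.01. This was THEM4 (-0.34, SE 0.09), which lost its call without replicate 1 of shControl (edgeR adjusted p = 0.117) or replicate 1 (0.0634), 2 (0.111) or 3 (0.0568) of shTRIM21. Among 13 tested genes of triglyceride storage and lipolysis, with a median of 0.03 and 23.1% called, the lipid droplet coat genes PLIN3 and PLIN2 rose by 0.36 (SE 0.08) and 0.30 (SE 0.08), and ABHD5, an activator of lipolysis, fell by 0.26 (SE 0.08). PLIN2 lost its call without shControl replicate 1 (edgeR adjusted p = 0.108), shTRIM21 replicate 2 (0.0646) or 3 (0.136), replicate 3 of both groups (0.0716), or with total counts (0.0564). ABHD5 lost it in 5 of 6 fits with 1 library left out, all but that without shControl replicate 3 (edgeR adjusted p = 0.0591 to 0.159), without replicate 3 of both groups (0.0662) and with total counts (0.0774). Of 8 tested genes of fatty acid and acyl-CoA binding and 16 tested lipid transcription regulators, the PPAR and SREBP factors among them, 0 rose and 0 fell in edgeR, DESeq2 or limma-voom, and 0 had an unadjusted p under 0.05 in edgeR. Their medians were -0.04 and 0.03.

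Of 28 tested genes of ferroptosis, the form of cell death by lipid peroxidation in which ACSL4 and ACSF2 have been placed, 6 rose and 0 fell (21.4% called, beside 9.08% of all tested genes, 4.43% higher), with a median of 0.16. The genes named by size of change were HMOX1, which breaks down heme (log2 fold change 1.34, SE 0.11), SAT1 of polyamine breakdown (0.72, SE 0.08), and the ferritin chain FTL (0.56, SE 0.08). The rest of the called genes were GSS (0.41, SE 0.08), GPX4 (0.35, SE 0.09) and FTH1 (0.32, SE 0.06), whose calls were not followed over the alternatives. This list mixes genes that favour and genes that limit lipid peroxidation. The lists were drawn up with earlier results of these data known, and no test compared them with other genes.

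**Figure D5:**
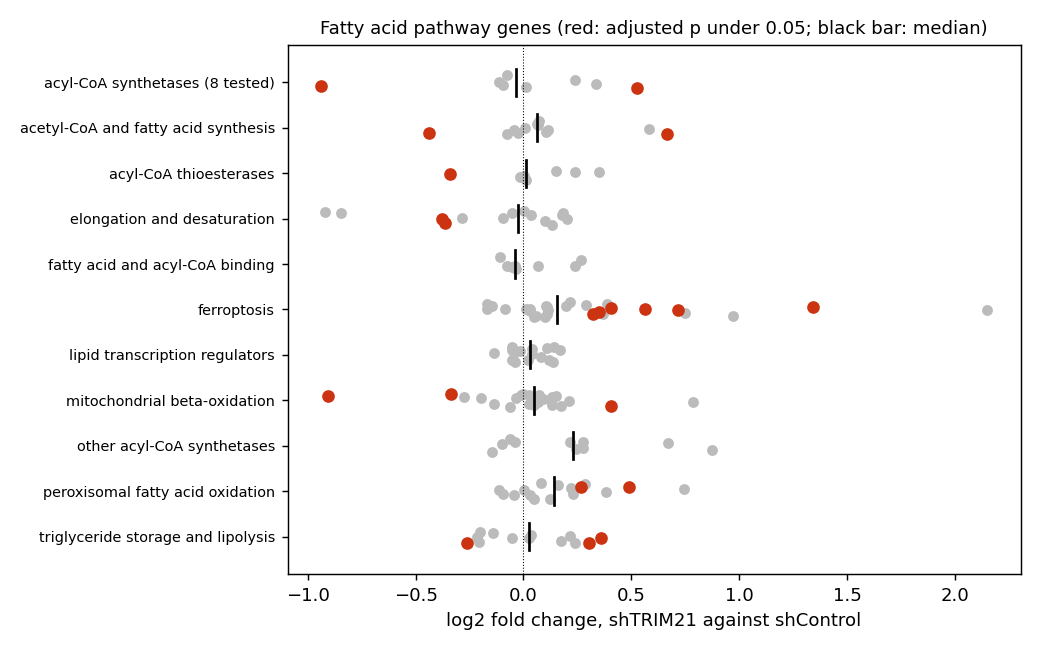
Log2 fold change of each tested gene in the acyl-CoA synthetases and the 10 lists of related genes, with genes called at an adjusted p under 0.05 in red, other genes in grey and a black bar at the list median. The medians lie between -0.04 and 0.23, and the ferroptosis list has 6 called genes on the higher side and 0 on the lower.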

How the data were processed

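The deposited tables, 1 per library, hold the authors' counts of reads for each gene symbol as whole numbers, not normalized. TopHat2 2.1.1, edgeR 3.38.1, limma 3.52.2 and hg38 are named in the submitters' processing notes. RNA was depleted of ribosomal RNA, per the labels' protocols. The counting tool, annotation and strand setting were not given in the sources used here.

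Counts were filtered with filterByExpr, scaled by TMM and tested with edgeR 4.0.16 (R 4.3.3, quasi-likelihood, no other term), with p-values adjusted by Benjamini-Hochberg over 14002 genes at a threshold of 0.05. The SE is the log2 fold change divided by the square root of F. The fit was tested on simulated data. Annotation and sequences come from GENCODE 29 (GRCh38), read with Python 3.11.15 and Biopython 1.88. Protein identity is over aligned residues (BLOSUM62, global). Centred log2 CPM used a prior count of 2. The members and lists were chosen with earlier results of these data known. In each list up to 3 called genes whose larger group mean reached 5 CPM were named by size of change, plus any that went against the majority. A further gene that the rule named for its likeness to ACSF2 is not reported here. ACSBG1, SLC27A1, GSS, GPX4 and FTH1 were named after their values were seen. Alternatives covered scaling, filters, DESeq2 1.42.0, limma-voom 3.58.1, the 20 most abundant genes, the replicate number as a block, and libraries left out. Library totals of 22656160 to 27123657 counts limit the precision of the members under 100 counts.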

Additional observations from a re-analysis of the deposited data

How the results depend on the processing

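The members called numbered 2 in the reported fit and in every alternative but those that left out replicate 3 of shTRIM21, alone or with that of shControl, where ACSL5 alone was called and the number was 1. With 1 library left out it thus ran from 1 to 2. With 1 library left out ACSF3 ran from -0.35 to 0.067 (the latter without shTRIM21 replicate 2) and ACSL1 from -0.0079 (without shControl replicate 2) to 0.041, and neither was called in any fit. Over all genes 1272 were called, 602 to 1737 with 1 library left out and 888 with total counts. The log2 fold change of TRIM21 lay between -0.82 and -0.56 in these fits. It was -0.45 and not called when replicate 3 of both groups was left out, and -0.62 and not called without that of shTRIM21 only. Genes called in the lists numbered 19, and 14 to 24 in the alternatives. The length of a principal transcript, chosen after the data were seen, changed the levels per kb but not the order of the members. With it ACSF2 and ACSS1 no longer overlapped in shTRIM21. Same-numbered libraries deviated together with correlations of 0.096, -0.0123 and 0.0907. For replicates 1 and 3 the same-numbered library was the best match in the other group, and for replicate 2 it was not. The share of ribosomal RNA fell from replicate 1 to 3 in both groups (14.7%, 13.2% and 6.69% in shControl, 15.2%, 13.5% and 9.55% in shTRIM21). The labels do not say what the numbers share, so the reported fit did not pair the libraries. Shared handling by replicate number was not tested. With the replicate number as a block 1699 genes and the same 2 members were called. The planned levels per RefSeq coding length were not run. Where a fit with fewer libraries did not account for a change, the cause was not tested.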
